A study of Mus musculus with 18 samples.

Results

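Mog, Mag, Mobp, Cnp, Cldn11, Opalin, Mal and Ugt8a are 8 genes of central myelin and of the oligodendrocytes that make it. They were taken by name from RNA sequencing of dorsal spinal cord, in which they are 8 of 18667 gene names on 34579 loci. The tissue came from lumbar segments L3 to L5 of mice aged 3 months, C57BL/6 in the labels and C57BL/6N in the study's methods. Each mouse had received a recombinant adeno-associated virus (rAAV) in the spinal cord, with LacZ as control cargo, with HDAC4 in its wild-type form (HDAC4 wt), or with a mutant held in the nucleus (HDAC4 3SA), and then an injection of saline or of Complete Freund's adjuvant (CFA, which inflames the paw) into the hindpaw. Tissue was taken 24 h later. There were 6 groups of 3 mice, or 18 mice, and no group went without virus.

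The vectors differ in more than their cargo. In the scheme of the constructs LacZ stands under a CMV promoter and both HDAC4 forms under the neuronal Syn promoter, so cargo and promoter cannot be told apart in a comparison with LacZ. The transgenes were aimed at neurons of the dorsal horn, not at oligodendrocytes. The levels are FPKM (fragments per kilobase of exon, relative to the mapped fragments), a scale that corrects for gene length, and the deposited tables hold 1 FPKM value per group over its 3 mice. There is therefore no error between mice for any value below. No test was made, and the authors' own test results were not used. From the values alone, a difference between groups cannot be set against the spread between replicates.

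An oligodendrocyte wraps axons in many turns of its own membrane, which compacts into myelin and speeds conduction. The membrane is rich in cholesterol and galactolipids, and its proteins differ in place: some hold the compact layers together, some line the inner face next to the axon, some sit on the outermost turn, and some seal the edges. MYRF and SOX10 are transcription factors that switch on myelin genes in these cells. Several of the 8 genes, Mag, Mal, Cnp and Ugt8a among them, are also used by Schwann cells, which make the myelin of nerve roots.

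The promoters of these genes are shown because MYRF and SOX10 bind short motifs in such regions. All 8 genes had a RefSeq promoter window of 300 bases on GRCm38.p6, from 250 bases before to 50 after a start site, with 10 windows in all. The letters searched, on both strands, were CTGGCAC or CTGGTAC for MYRF and ACAAAG for SOX10; these do not overlap each other. The MYRF letters were found in Mog, Mag, Cnp and Opalin, 4 of 8 genes, against 8.10% of 27025 genes and 7.10% of 32851 windows. In the stretches below the capitals mark the MYRF letters on either strand, and each stretch is written from 5′ to 3′ along the gene's own strand.
Mog: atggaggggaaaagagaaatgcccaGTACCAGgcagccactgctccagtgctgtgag
Mag: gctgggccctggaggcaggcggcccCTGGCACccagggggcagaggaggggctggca
Cnp: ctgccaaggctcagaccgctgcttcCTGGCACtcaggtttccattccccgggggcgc
Opalin: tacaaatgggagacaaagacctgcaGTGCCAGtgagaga
They lie at chr17:37023450-37023506 on the minus strand for Mog, chr7:30914900-30914956 on the minus strand for Mag, chr11:100574833-100574889 on the plus strand for Cnp and chr19:41077064-41077102 on the minus strand for Opalin. The match began 83 bases before the start site in Mog and 81 in Cnp, and lay after the start site in Opalin. In Mag it began 68 bases before a start site, and it also lay in the window of another start site, at another distance.

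The SOX10 letters were found in Mag, Mobp, Cnp and Opalin, 4 of 8 genes, against 5680 of 27025 genes and 18.7% of windows. Mobp held 6 matches in its window, and 3 of the 32851 windows held 5 or more. The part of the Mobp window that carries them, at chr9:120149492-120149652 on the plus strand, is shown for this cluster, with the SOX10 letters in capitals in the reverse orientation.
Mobp: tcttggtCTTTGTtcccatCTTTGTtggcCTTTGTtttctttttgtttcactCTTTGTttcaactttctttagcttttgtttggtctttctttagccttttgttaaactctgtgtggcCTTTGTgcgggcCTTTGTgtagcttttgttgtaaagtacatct
A loose form of the motif of MEF2 factors, the classical partners of HDAC4, was also searched (CTA and TAG with 4 bases of any kind between them, the same on both strands). It was in 0 of 8 genes and in 4.23% of all genes. These counts hold for this string only, not for every form of the motif. Cldn11, Mal and Ugt8a held none of these letters in their windows. A match is a string of letters and not a binding site, and a window without one says nothing of the factor.

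The 8 genes lie on 7 chromosomes, with Cldn11 and Ugt8a both on chromosome 3. In the GENCODE annotation of GRCm38 they are all protein coding, and the loci of the tables cover 93.3% (Mal) to 100% of their exon bases. The locus of Cnp also spans Dnajc7, on the other strand, and Nkiras2, and that of Mog spans Zfp57, so reads of these neighbours could enter the values, to an extent that was not tested. Mal had 2 further short rows at 0.166 to 0.508 FPKM, which were not used.

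Mobp encodes a small basic protein of compact myelin and was the highest of the 8. It was at 1103 FPKM with saline and 1128 with CFA in LacZ mice, at 884 and 1177 under HDAC4 wt, and at 834 and 905 under HDAC4 3SA. Both LacZ groups and the HDAC4 wt CFA group thus stood above the other 3 groups.

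Mal encodes a proteolipid that sorts membrane into myelin. It was at 236 FPKM with saline and 238 with CFA in LacZ mice, 224 and 256 under HDAC4 wt, and 233 and 234 under HDAC4 3SA. Its highest value was 1.14 times its lowest, the narrowest range of the 8.

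Cnp encodes a phosphodiesterase of the non-compact, cytoplasm-filled channels of myelin. It was at 242 FPKM with saline and 252 with CFA in LacZ mice, 273 and 316 under HDAC4 wt, and 264 and 285 under HDAC4 3SA. Both LacZ values were below the 4 values of the HDAC4 vectors.

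Mag encodes an adhesion protein on the inner face of the sheath, next to the axon. It was at 232 FPKM with saline and 228 with CFA in LacZ mice, 261 and 304 under HDAC4 wt, and 242 and 271 under HDAC4 3SA. Here, too, the LacZ groups were the lowest pair.

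Mog encodes an immunoglobulin-like protein of the outermost membrane of the sheath. It was at 102 FPKM with saline and 97.1 with CFA in LacZ mice, 108 and 121 under HDAC4 wt, and 101 and 112 under HDAC4 3SA. The saline values of the 3 vectors lay close together, and the CFA values spread apart.

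Opalin encodes a membrane glycoprotein of central but not peripheral myelin and was the lowest of the 8. It was at 17.3 FPKM with saline and 16.0 with CFA in LacZ mice, 19.3 and 21.3 under HDAC4 wt, and 17.4 and 19.6 under HDAC4 3SA. Like Mog, it was lowest in LacZ CFA and highest in HDAC4 wt CFA.

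Cldn11 encodes the claudin of the tight junctions that run along the myelin layers. It was at 127 FPKM with saline and 140 with CFA in LacZ mice, 160 and 202 under HDAC4 wt, and 148 and 183 under HDAC4 3SA. Its highest value was 1.59 times its lowest, the widest range of the 8.

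Ugt8a encodes the enzyme that makes galactosylceramide, the main galactolipid of myelin, and is the one enzyme of lipid synthesis among the 8. It was at 34.7 FPKM with saline and 30.4 with CFA in LacZ mice, 28.7 and 29.1 under HDAC4 wt, and 33.0 and 26.8 under HDAC4 3SA. It was highest in LacZ saline and lowest in HDAC4 3SA CFA, whereas the other 7 genes were all highest in HDAC4 wt CFA.

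**Figure D1:**
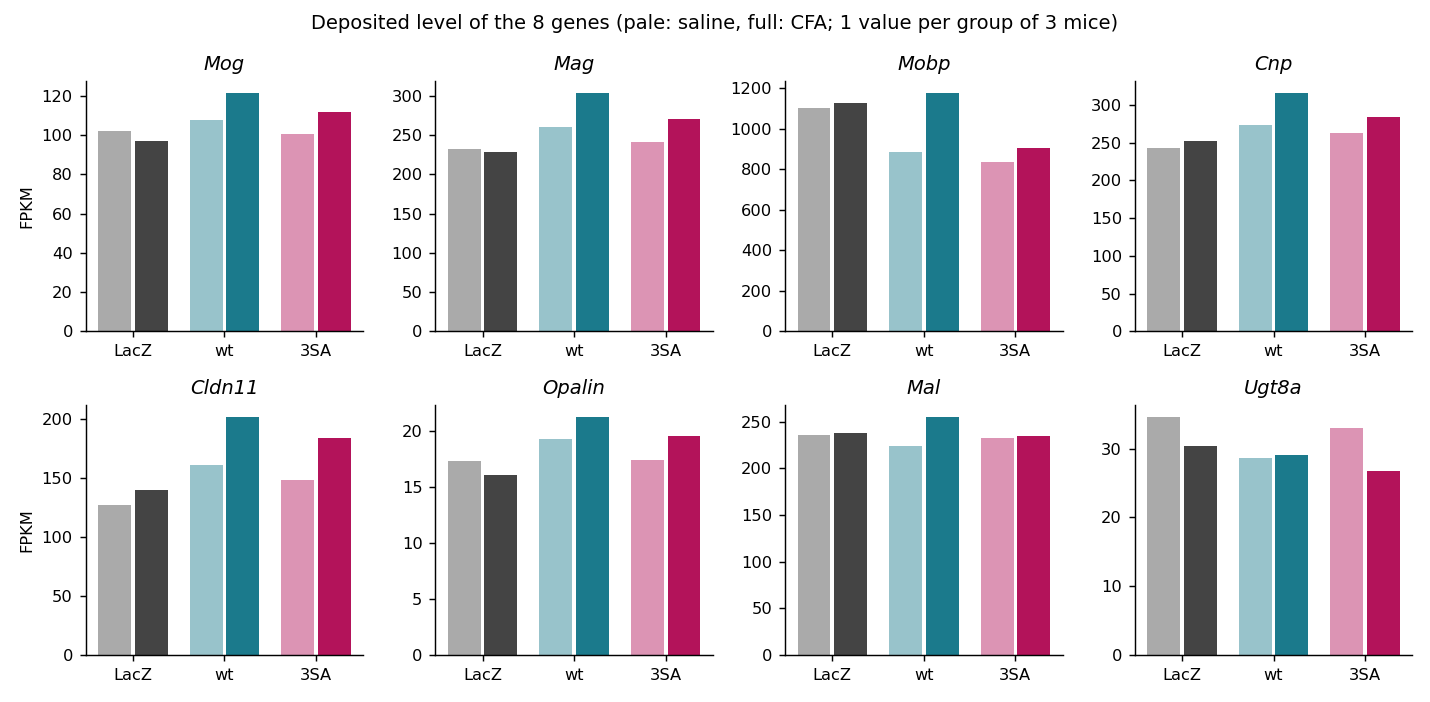
Level of each of the 8 genes in FPKM (vertical axis, from 0, a scale of its own per gene) in the 6 groups, pale bars for saline and full bars for CFA, 1 deposited value per group of 3 mice and so no error bars. In 7 panels the HDAC4 wt CFA bar is the tallest, and in the Ugt8a panel the LacZ saline bar is, at 34.7 FPKM.

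By their mean over the 6 groups the order of levels was Mobp at 1005 FPKM, Cnp at 272, Mag at 256, Mal at 237, Cldn11 at 160, Mog at 107, Ugt8a at 30.5 and Opalin at 18.5. The ranges over groups overlapped between Cnp and Mag and between Mag and Mal, and not between the other neighbours in this order. Without values per mouse, whether neighbours differ beyond the spread between mice cannot be said.

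The first comparison asks what CFA did to these genes in control mice. In LacZ mice the 8 genes hardly moved: 4 were higher after CFA and 4 lower, with a median log2 change of -0.01 (on the scale log2(FPKM + 0.1), as all changes here). Among 17413 loci with a mean of at least 1 FPKM, 50.8% were higher and the median was 0.00. The changes ran from -0.19 for Ugt8a, through -0.11 for Opalin, -0.07 for Mog, -0.02 for Mag, 0.01 for Mal, 0.03 for Mobp and 0.06 for Cnp, to 0.14 for Cldn11. None of the 8 was beyond a log2 change of 0.5 in either direction, against 7.14% of loci, and none was above 0.25 or below -0.25, against 10.5% and 7.45%. Of 4958 loci at the levels of the 8 genes, a set chosen after the values were seen, 5.43% were above 0.25 and 5.06% below -0.25.

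Under HDAC4 wt all 8 genes were higher after CFA, with a median log2 change of 0.20. Of 18075 loci 52.9% were higher, with a median of 0.01. Mobp, higher by 0.41 or 33.2% of its saline level, and Cldn11, higher by 0.33 or 25.7%, moved furthest, followed by Mag at 0.22, Cnp at 0.21, Mal at 0.19, Mog at 0.18, Opalin at 0.14 and Ugt8a at 0.02. These are small steps: 0 of 8 passed 0.5, against 14.0% of loci, 2 of 8 were above 0.25, against 18.7%, and 0 of 8 were below -0.25, against 11.2%. Among the 4358 loci whose mean lay within the range of the 8 genes, a set chosen after the values were seen, 49.3% were higher and 14.7% had a change above the genes' median. Of these loci 12.3% were above 0.25 and 7.89% below -0.25.

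Under HDAC4 3SA 7 of 8 genes were higher after CFA and Ugt8a was lower, with a median log2 change of 0.13. Of 18032 loci 52.0% were higher, with a median of 0.01. Cldn11 was higher by 0.30, or 23.5%, Opalin by 0.17, Mag by 0.16, Mog by 0.15, Mobp by 0.12, Cnp by 0.11 and Mal by 0.01. Ugt8a stood at -0.30, a level 19.0% under that with saline. None of the 8 passed 0.5, against 14.6% of loci, 1 was above 0.25, against 19.8%, and 1 was below -0.25, against 13.7%. Of 4713 loci at the levels of the 8 genes, 50.03% were higher and 25.4% had a change above the genes' median. Of these loci 15.5% were above 0.25 and 10.6% below -0.25.

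**Figure D2:**
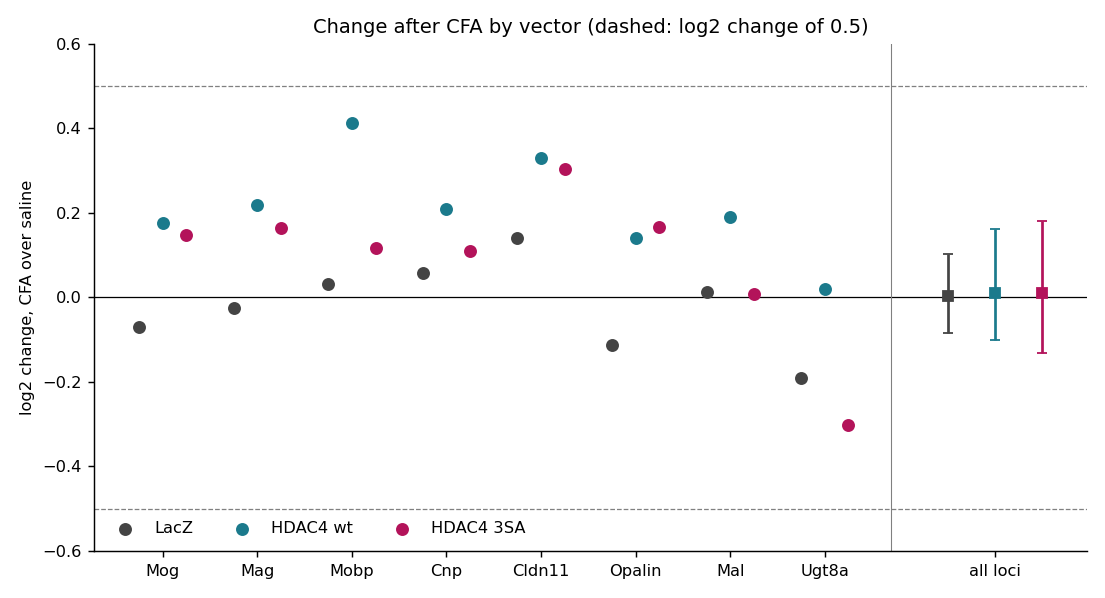
Log2 change of FPKM after CFA over saline (vertical axis) for each of the 8 genes and, at the right, the median of all tested loci with bars from the lower to the upper quartile, by vector. The HDAC4 wt points all lie above 0, from 0.02 to 0.41, the LacZ points lie on both sides of it, and no point reaches the dashed lines at 0.5.

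The second question is whether the change after CFA depended on the vector. The HDAC4 wt change minus the LacZ change was above 0 for all 8 genes, against 50.6% of 16580 loci, with a median of 0.23, from 0.15 for Cnp to 0.38 for Mobp. The HDAC4 3SA change minus the LacZ change was above 0 for 6 of 8, against 49.7% of 16511 loci, with a median of 0.13. It was highest for Opalin at 0.28, was near 0 for Mal at -0.01, and was lowest for Ugt8a at -0.11. These differences share the LacZ mice, so they are not independent of each other. The HDAC4 3SA change minus the HDAC4 wt change was above 0 for 1 of 8, Opalin at 0.03, against 50.6% of 17349 loci, with a median of -0.08 and the lowest value, -0.32, for Ugt8a. None of these differences could be tested, since each rests on 4 group values.

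The saline groups of the vectors did not all start from the same level. In saline mice HDAC4 wt was higher than LacZ for 5 of 8 genes, against 53.5% of loci, with a median log2 ratio of 0.11, from -0.32 for Mobp to 0.34 for Cldn11. In saline mice HDAC4 3SA was higher than LacZ for 4 of 8, against 55.1% of loci, with a median of -0.01, from -0.40 for Mobp to 0.23 for Cldn11. In CFA mice the medians against LacZ were 0.32 for HDAC4 wt, with 7 of 8 genes higher, against 51.5% of loci, and 0.19 for HDAC4 3SA, with 5 of 8 higher, against 51.0% of loci. The log2 ratios ran from -0.06 for Ugt8a to 0.53 for Cldn11 under HDAC4 wt and from -0.32 for Mobp to 0.39 for Cldn11 under HDAC4 3SA. For Mobp the high change under HDAC4 wt thus began at a saline level below that of LacZ and ended at 0.06 above it after CFA. Each vector's table was normalized in a run of its own, so these ratios across tables also carry any difference between runs.

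The geometric mean of the 8 genes was 135.5 FPKM with saline and 133.7 with CFA in LacZ mice, 138.4 and 160.4 under HDAC4 wt, and 134.4 and 143.0 under HDAC4 3SA. Between vectors this mean also carries any difference between runs. A ratio between genes of the same group is free of that scaling. Set against the geometric mean of the other 7 genes in the same group (a measure added after the values were seen), 3 genes stood out from their family. Ugt8a went from 0.211 times the others in LacZ saline to 0.142 times in HDAC4 wt CFA and 0.147 times in HDAC4 3SA CFA. Cldn11 went the other way, from 0.926 times in LacZ saline to 1.33 times in HDAC4 3SA CFA. Mobp went from 10.99 times in LacZ saline to 8.24 times in HDAC4 3SA CFA, and was lowest, at 8.05 times, in HDAC4 3SA saline. For these 3 genes the log2 ratio ranged over 0.51 (Mobp), 0.52 (Cldn11) and 0.56 (Ugt8a) across the 6 groups, and for the other 5 over 0.12 (Mog) to 0.25 (Opalin).

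**Figure D3:**
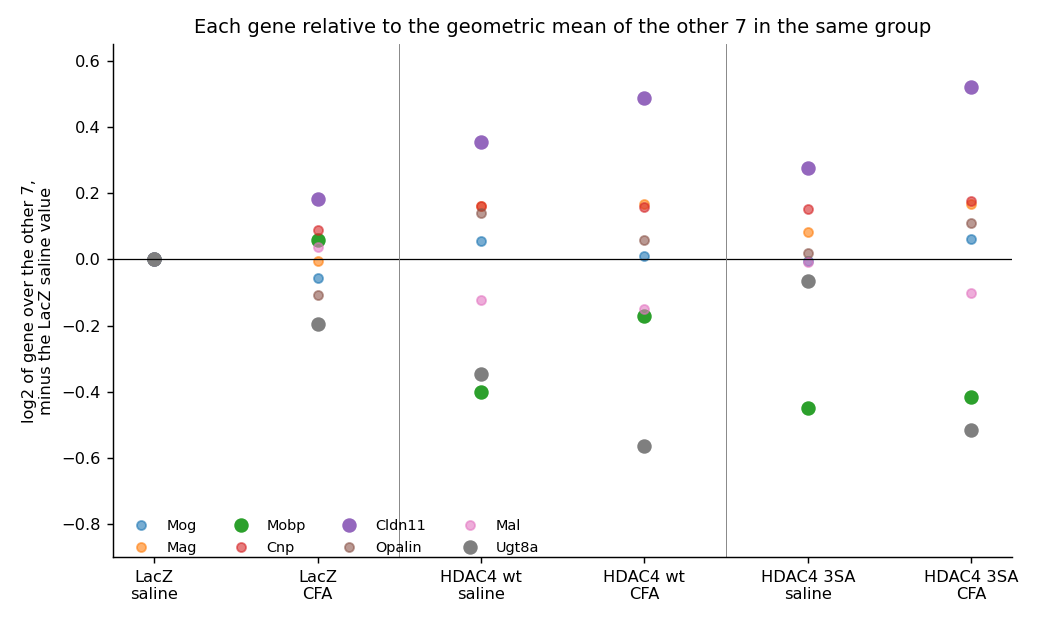
Log2 ratio of each gene to the geometric mean of the other 7 in the same group, minus its value in LacZ saline (vertical axis), in the 6 groups (horizontal axis), 1 point per gene and group. Cldn11 lies at the top and Ugt8a or Mobp at the bottom of each group after the first, and most other points lie between them.

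The wider oligodendrocyte lineage was read with 7 further lists of 87 genes, of which 86 are named in the tables and 84 were measured at 1 FPKM or more. After CFA 43 of the 84 were higher in LacZ mice, 79 under HDAC4 wt and 53 under HDAC4 3SA. The 84 include 17 genes of cholesterol synthesis, of which 4, 16 and 0 were higher in the same order. The totals thus mix lists that moved differently. The shares of all loci that were higher, 50.8%, 52.9% and 52.0%, stand beside these counts and those of the single lists that follow, and the LacZ count is close to its share. Most changes were small. Beyond 0.5 lay only Lhfpl3, described below, and Zfp488, the gene of a factor that promotes oligodendrocyte maturation, with low levels of 1.92 to 3.81 FPKM and changes of -0.43 in LacZ, 0.52 in HDAC4 wt and 0.72 under HDAC4 3SA.

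The 11 transcription factors of the lineage stand above the myelin genes in the programme of the cell. Their median change was 0.05 in LacZ mice, with 8 of 11 higher, 0.26 under HDAC4 wt, with 11 of 11 higher, and 0.25 under HDAC4 3SA, with 11 of 11 higher. Olig1, the highest of them, was at 92.4 FPKM with saline and 97.1 with CFA in LacZ mice, 93.9 and 112 under HDAC4 wt, and 92.4 and 110 under HDAC4 3SA. Myrf, named because its motif was searched, was at 29.9 and 29.7 FPKM in LacZ mice, 36.4 and 44.0 under HDAC4 wt, and 33.4 and 40.2 under HDAC4 3SA. Sox10, named for the same reason, was at 31.5 and 35.0, 39.3 and 45.3, and 35.7 and 42.1 FPKM. Both factors were thus lower in each LacZ group than in the HDAC4 groups, and higher after CFA in each HDAC4 vector.

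The 12 measured markers of mature oligodendrocytes, such as Sept4, which encodes a cytoskeletal septin, had medians of -0.08 in LacZ mice, with 2 of 12 higher, 0.14 under HDAC4 wt, with 12 of 12 higher, and 0.19 under HDAC4 3SA, with 11 of 12 higher. Sept4 was the highest of them, at 222 FPKM with saline and 221 with CFA in LacZ mice, 241 and 266 under HDAC4 wt, and 218 and 252 under HDAC4 3SA. The 9 genes of glial junctions and of the paranode had medians of 0.01, 0.17 and 0.04, with 5, 9 and 6 of 9 higher in the order LacZ, HDAC4 wt and HDAC4 3SA. Nfasc, whose glial form anchors the paranode, was the highest of these, with changes of -0.02, 0.30 and 0.26.

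The 11 measured further myelin proteins had medians of 0.16, 0.13 and 0.10, with 8, 10 and 9 of 11 higher, and so had a positive median in LacZ mice as well. Plekhb1, a membrane-binding protein and the highest read in this list, changed by 0.22, 0.24 and 0.15. Mbp, a main protein of compact myelin, is listed at 5.404 to 6.656 FPKM on a locus that covers 79.0% of its exon bases, far under Mobp, and its changes were 0.11, 0.13 and 0.08. Trf, the iron carrier transferrin and a marker of mature oligodendrocytes, is listed at 0.321 to 0.550 FPKM. The reason for these low values was not tested, and Mbp entered only the counts and medians of its list.

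The 14 genes of precursors and newly formed cells had medians of 0.05, 0.14 and 0.19, with 9, 12 and 11 of 14 higher. Lhfpl3 had a pair of rows on the same locus, and the row with the higher mean swung from 231 to 133 FPKM in LacZ mice, from 126 to 0 under HDAC4 wt and from 670 to 117 under HDAC4 3SA. The other row was steady, at 23.8 and 28.0, 22.2 and 27.1, and 21.9 and 24.96 FPKM. With that row the medians of the list were 0.07, 0.17 and 0.19.

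The lipids of myelin are made by further enzymes. The 10 genes of myelin lipid synthesis and transport had medians of 0.02, 0.08 and -0.01, with 7, 9 and 5 of 10 higher. Apod, a lipid carrier and the highest of these, changed by 0.16, 0.18 and 0.48, and Fa2h, which makes the hydroxylated fatty acids of galactosylceramide and had the lowest change of the list under HDAC4 3SA, by 0.11, 0.14 and -0.11. The 17 measured genes of cholesterol synthesis had medians of -0.02, 0.05 and -0.25, with 4, 16 and 0 of 17 higher. Hmgcs1, which catalyses an early step of the pathway and was the highest of these, was at 171 FPKM with saline and 152 with CFA in LacZ mice, 80.9 and 83.0 under HDAC4 wt, and 109 and 83.9 under HDAC4 3SA. Ugt8a, the lipid enzyme among the 8 genes, was the one member that was lower after CFA under HDAC4 3SA, beside this list. Cholesterol synthesis is a task of astrocytes and neurons as well, and in bulk tissue fewer cells of a type and less RNA per cell cannot be told apart, here or for any gene above.

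**Figure D4:**
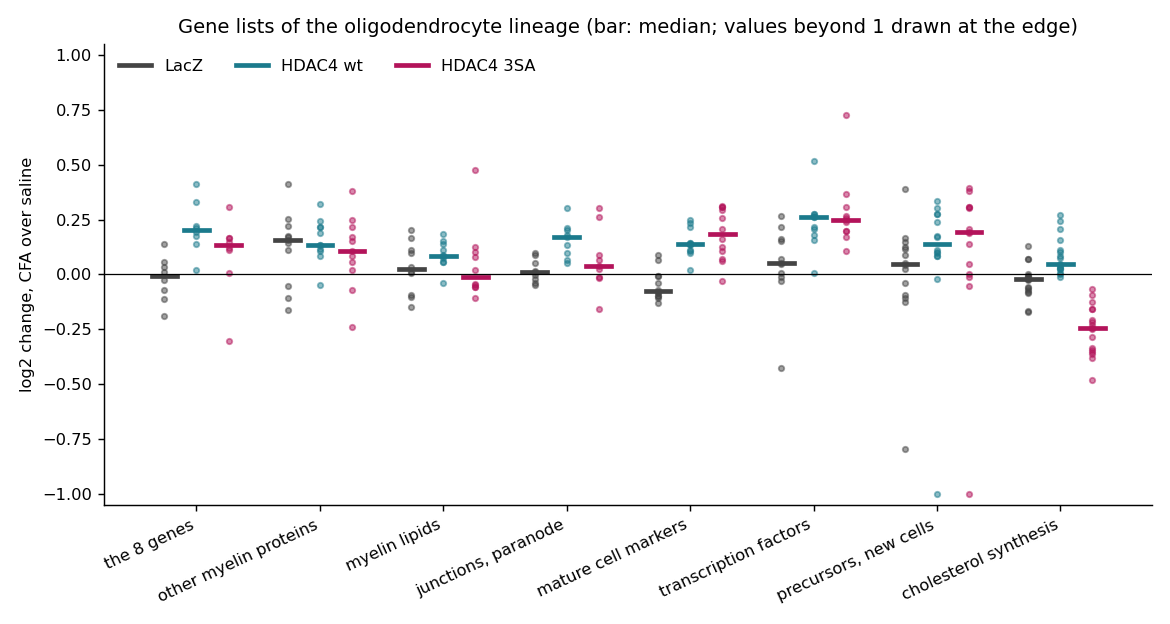
Log2 change of FPKM after CFA over saline (vertical axis) for the genes of each list (points) and the list's median (bar) by vector, with values beyond 1 in either direction drawn at the edge. The cholesterol synthesis points of HDAC4 3SA all lie below 0, from -0.48 to -0.07, while the transcription factor points of HDAC4 3SA all lie above it.

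The same lists were set against LacZ with saline. The cholesterol genes were lower than in LacZ for 17 of 17 genes in both HDAC4 vectors, with a median of 0.494 times the LacZ level under HDAC4 wt and 0.665 times under HDAC4 3SA, whereas the 8 genes had medians of 1.08 and 0.996 times. Ugt8a was at -0.27 and -0.07 on the log2 scale against LacZ with saline, lower in both HDAC4 vectors, as Mobp was, at -0.32 and -0.40, and Mal, at -0.08 and -0.02. The transcription factors were higher than in LacZ for 10 of 11 genes in each HDAC4 vector, with medians of 1.21 and 1.11 times. Of all loci 53.5% and 55.1% were higher than in LacZ with saline.

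Markers of other cells moved beside these values, and their part in the results was not tested. The 10 microglia markers stood with saline at a median of 3.77 times LacZ under HDAC4 wt and 3.03 times under HDAC4 3SA, with summed levels of 176 FPKM with saline and 196 with CFA in LacZ mice, 881 and 1109 under HDAC4 wt, and 670 and 1222 under HDAC4 3SA. After CFA the microglia median changed by 0.08, 0.25 and 0.71, with 8, 10 and 10 of 10 higher. The 9 measured neuron markers, led by Snap25, had medians of -0.01, -0.16 and -0.29 after CFA, with 4, 3 and 3 of 9 higher. The 9 measured astrocyte markers, led by Gfap, had medians of 0.01, 0.15 and -0.03, with 5, 9 and 4 of 9 higher. Under HDAC4 3SA 4 of 9 astrocyte markers were above 0.25, against 19.8% of loci, Gfap among them at 0.44. Of all loci 50.8%, 52.9% and 52.0% were higher after CFA, for these lists and those that follow. Under HDAC4 wt a rise of all measured genes was thus also seen in the microglia and astrocyte lists. With saline the neuron markers stood at medians of 0.751 and 0.807 times LacZ under HDAC4 wt and HDAC4 3SA, with 8 of 9 lower in each. The astrocyte markers had median log2 ratios to LacZ of -0.22 and -0.14 with saline, with 5 of 9 lower in each, though Gfap, the highest of them, stood at 1.052 and 1.047. Their summed levels were 1676 to 2600 FPKM for neurons and 1031 to 1764 FPKM for astrocytes, and none of these markers was at 0 in any group.

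Schwann cells use several of the 8 genes for their own myelin. All 8 measured Schwann markers were higher after CFA in LacZ mice, with a median of 0.59, 2 of 8 were higher under HDAC4 wt, with a median of -0.05, and 0 of 8 were higher under HDAC4 3SA, with a median of -0.63. The summed level of the list was 968 and 1487 FPKM in LacZ mice, 976 and 963 under HDAC4 wt, and 1333 and 833 under HDAC4 3SA, and no marker was at 0. The summed Schwann markers were thus highest in LacZ CFA and lowest in HDAC4 3SA CFA. Of the genes that both kinds of myelin use, Mag was lowest in LacZ CFA, Cnp was higher after CFA in LacZ mice, at 242 and 252 FPKM, Mal was at 236 and 238 FPKM there, and Ugt8a was lowest in HDAC4 3SA CFA, at 26.8 FPKM. Opalin, which Schwann cells lack, was lowest in LacZ CFA and higher after CFA in both HDAC4 vectors.

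**Figure D5:**
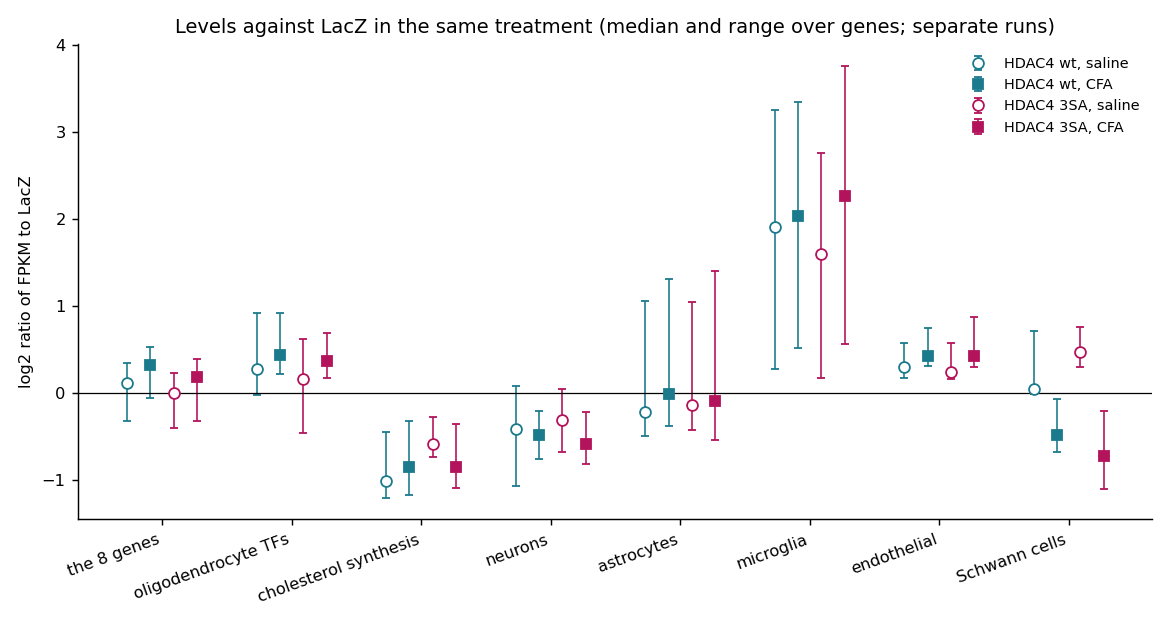
Log2 ratio of FPKM to LacZ in the same treatment (vertical axis) for the 8 genes and 7 lists, open circles for saline and squares for CFA, with the median and, as bars, the lowest and highest gene. The 8 genes have medians of 0.11 and -0.01 with saline and 0.32 and 0.19 with CFA, with Cldn11 highest at 0.53, microglia lie above 0, at medians of 1.92 and 1.60 with saline, and cholesterol synthesis lies below 0, at -1.02 and -0.59.

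Of the remaining lists, the 8 endothelial markers had medians of 0.06, 0.18 and 0.24 after CFA, with 5, 7 and 8 of 8 higher. The 8 leptomeningeal markers had medians of 0.49, 0.01 and 0.04, with 8, 4 and 4 of 8 higher. The neutrophil markers had medians of 3.34, -0.83 and -0.88 over 5, 4 and 5 measured genes, whose summed levels were 10.5 and 109 FPKM, 38.2 and 27.0 FPKM, and 58.8 and 36.8 FPKM. Skeletal muscle markers had medians of 1.09 over 7 genes in LacZ mice and -0.46 over 7 genes under HDAC4 3SA, with summed levels of 21.1 and 43.8 FPKM and of 67.0 and 54.6 FPKM. Under HDAC4 wt Mylpf alone was measured, at 2.13 and 1.45 FPKM. Of the sensory ganglion markers 1, 2 and 2 reached 1 FPKM, with a change of 0.34 for the single gene in LacZ mice and medians of 1.46 and 0.81 under the HDAC4 vectors. Prph, a neurofilament protein of sensory and motor neurons, was at 20.8 FPKM with saline and 26.3 with CFA in LacZ mice, 8.81 and 21.9 under HDAC4 wt, and 15.6 and 43.5 under HDAC4 3SA. The change of the 8 genes furthest from 0 in any vector was 0.41, that of Mobp.

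Finally, loci were ranked by how close their pattern over the 6 groups came to the mean pattern of the 8 genes, as the root mean square difference of centred log2 levels. Among 10339 loci that name a single gene and reach a mean of 5 FPKM, the nearest that are not among the 8 were Antxr1 (a difference of 0.013), Hepacam (0.024), Car14 (0.028), Ctbp2 (0.029) and Cdc42ep1 (0.029). Antxr1 was at 7.10 and 7.22 FPKM in LacZ mice, 7.35 and 8.48 under HDAC4 wt, and 7.11 and 7.61 under HDAC4 3SA. Of all loci, 107 came within 0.05 of the pattern, and the median over all loci was 0.150. The 8 genes themselves ranked from 12 for Mog, 159 for Cnp, 270 for Mal, 399 for Mag and 550 for Opalin to 5463 for Cldn11, 6271 for Mobp and 6479 for Ugt8a. This distance and the ratio to the other 7 genes measure nearly the same thing, so these ranks are no second observation.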

How the data were processed

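The authors sequenced poly-A RNA of dorsal spinal cord from 18 mice, mapped the reads to GRCm38 (mm10) with TopHat and Bowtie, and used Cufflinks and Cuffdiff, per the paper and the submitters' processing notes. They deposited 1 Cuffdiff table per vector with FPKM values, 1 pooled estimate per group; values per mouse, counts and depth are not part of these tables, so the precision of a value is unknown. The tables' other columns hold the authors' own fold changes, test statistics, p-values, q-values and significance calls, and were not used; the status column served to leave out failed estimates. The libraries were strand-specific, per the paper, but whether strand was used at counting is not given in the sources used here, so whether reads of antisense genes were kept apart is unknown.

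Where a name had several rows, the row with the highest mean FPKM over the 6 groups was taken. Changes are on the scale log2(FPKM + 0.1), over loci that averaged 1 FPKM or more across the compared groups; an added constant understates changes of low genes. A change beyond 0.5 was counted. 386 loci placed apart in the 3 tables were left out of comparisons between vectors. With 1 value per group no test of these values was possible, and the authors' own tests were not used. Groups follow the labels of the samples.

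The 8 genes, the 16 other gene lists and the measures were chosen with earlier results of these data known. Named in the text are the 8 genes, Mbp, in each oligodendrocyte list the gene of highest mean FPKM and those beyond 0.5, at most 2 genes of highest level in the other lists, and the 5 loci nearest in pattern; Myrf, Sox10, Trf and Fa2h were added after their values were seen. A few genes within the rule are left unreported. Alternatives were 0 or 1 FPKM added, a minimum of 5 FPKM or none, centring on the median of loci with at least 5 FPKM, calls beyond 0.25 or 1, and summed rows. Promoter windows are from RefSeq, gene models from GENCODE. The code was tested on simulated data. Python 3.11.15, numpy 2.4.6, pandas 2.3.3 and matplotlib 3.10.9 were used.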

Additional observations from a re-analysis of the deposited data

How the results depend on the processing

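No paired analysis was possible because the tables hold 1 pooled value per group and none per mouse; for the same reason no replicate could be left out. Of 120 alternative values of the main results 102 stayed within 0.05 on the log2 scale, or within 1.5 times for a count, and so did 96 of 96 alternative changes of single members, of which 0 changed sign. The median of the loci with at least 5 FPKM was 0.00, 0.01 and 0.00 in the LacZ, HDAC4 wt and HDAC4 3SA tables, so centring moved little. In the same order of vectors, loci beyond the call numbered 1244, 2536 and 2639; these became 485, 1037 and 1181 with a minimum of 5 FPKM, 5258, 8022 and 7528 with no filter on low values, 3131, 5399 and 6040 beyond 0.25, and 354, 726 and 843 beyond 1. In HDAC4 wt mice they were 1667 with 1 FPKM added. Members beyond the call became 2 for HDAC4 wt and 2 for HDAC4 3SA at 0.25. In CFA instead of saline groups the members' median against LacZ was 0.32 for HDAC4 wt and 0.19 for HDAC4 3SA. For precursors in HDAC4 3SA mice the median was 0.0947 with a minimum of 5 FPKM. These loci were not compared by name across settings.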
